A study of Mus musculus with 25 samples.

Results

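Fasting liver makes glucose, and insulin restrains that output. The 10 genes described here cover both sides of that balance in liver, as measured by RNA sequencing in C57BL6/J mice. They were chosen by name for their role, with earlier results of these data known, though the rule itself uses no measured value. Included are the enzymes and transporter of glucose production Pck1, G6pc, Fbp1, Pcx and Slc37a4, and their transcriptional regulators Ppargc1a and Foxo1. The others are the insulin receptor Insr and its adaptors Irs1 and Irs2. The set makes up 10 of 24537 genes in the table of read counts, and 10 of 10 had enough reads to be tested, among 14133 genes tested. The samples were livers of male mice aged 24 months in 4 groups: p53 knockout on a high-fat diet (HFD_p53KO, n = 7), Rosa26 knockout on a high-fat diet (HFD_Rosa26KO, n = 6), p53 knockout on control diet (Control_p53KO, n = 6) and Rosa26 knockout on control diet (Control_Rosa26KO, n = 6). Every group carries a knockout, and Rosa26, a locus commonly targeted as a neutral site, serves as the control target. How and in which cells the genes were deleted is not stated by the labels, nor are the composition and length of the diets. The samples are labelled as separate members of a group with no word on litters or pools, so p-values measure the spread between these samples. The study's title concerns p53 and healthy aging. The comparisons therefore ask how the diet, the loss of p53 and their combination bear on these genes.

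In gluconeogenesis, pyruvate enters through pyruvate carboxylase, oxaloacetate is turned into phosphoenolpyruvate, fructose bisphosphate is dephosphorylated, and glucose-6-phosphate is carried into the endoplasmic reticulum and cleaved to free glucose. Glucagon raises this flow through cAMP and the coactivator PGC-1alpha. Insulin binds its receptor, which phosphorylates IRS1 and IRS2 and activates Akt, and Akt removes FOXO1 from the nucleus. Since FOXO1 activates G6pc, Pck1 and Irs2 in liver, the same signal acts on both sets of genes.

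The knockout itself left a partial mark on Trp53 (chromosome 11, 69580359 to 69591873, GRCm38), which encodes p53. It averaged 26.0 ± 4.47 CPM (SD, n = 7) in HFD_p53KO against 37.1 ± 4.56 CPM (SD, n = 6) in HFD_Rosa26KO, and 24.1 ± 6.89 CPM (SD, n = 6) in Control_p53KO against 36.8 ± 4.80 CPM (SD, n = 6) in Control_Rosa26KO, where CPM is the read count scaled to the size of the library. In the edgeR fit across all genes the average genotype difference had a log2 fold change of -0.56 (SE 0.10, unadjusted p = 1.48e-05, adjusted p = 0.210). HFD_p53KO replicate 7 and Control_p53KO replicate 3 lay within the range of the Rosa26KO libraries of their diet. Calls that change without these 2 libraries are given with and without them. Libraries held 16324283 to 21501281 counts.

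Liver was the labelled tissue, and hepatocyte markers led by Alb were abundant in all 25 libraries. The summed level of 5 hepatocyte markers had medians of 63772 CPM in HFD_p53KO, 79706 CPM in HFD_Rosa26KO, 125796 CPM in Control_p53KO and 132396 CPM in Control_Rosa26KO. Of these markers 3 fell on HFD, namely Alb, Apoa1 and Serpina1a (edgeR adjusted p 0.0207 to 0.0345). This difference runs alongside every diet comparison below, and its part in them was not tested. In bulk tissue, fewer cells of a type and less RNA per cell cannot be told apart. Muscle markers were at or near 0 in all libraries. Of 5 adipocyte markers Lep had 0 counts in 25 of 25 libraries, Plin1 in 22 and Adipoq in 20, while Cidec, a lipid droplet protein, had a median of 30.2 CPM and was above 0 in every library. The summed adipocyte markers, nearly all Cidec, had medians of 50.2 CPM in HFD_p53KO, 55.0 CPM in HFD_Rosa26KO, 12.8 CPM in Control_p53KO and 20.5 CPM in Control_Rosa26KO, and their part in the diet comparisons was not tested. Of 6 pancreas markers Cela1 was present at a median of 7.37 CPM, and the others were at 0 in most libraries. Neutrophil markers were high in HFD_Rosa26KO replicate 6 and in Control_p53KO replicates 1 and 3, and acute phase genes in HFD_p53KO replicates 2 and 7, Control_p53KO replicate 1 and Control_Rosa26KO replicate 1. The acute phase sum of HFD_p53KO replicate 7, 9230 CPM, was not far above those of HFD_Rosa26KO replicates 6 (8272 CPM) and 2 (6728 CPM). These last libraries were not counted as high in acute phase genes. The summed level of 9 neutrophil markers reached at most 58.3 CPM in HFD_p53KO, 335 CPM in HFD_Rosa26KO, 564 CPM in Control_p53KO and 33.8 CPM in Control_Rosa26KO. Kupffer cell markers summed to 2288 CPM in Control_p53KO replicate 3, against 171 to 911 CPM in all other libraries. That library also had the lowest level in its group of each of the 10 genes but Irs1, and the part of its makeup in the comparisons was not tested. On HFD 0 of 6 Kupffer cell markers passed under edgeR, with 2 at an unadjusted p under 0.05, 2 of 5 erythroid markers rose, and 2 of 5 stellate cell markers and 1 of 5 sinusoidal endothelial markers fell. Across all genes 9.71% passed in that comparison, averaged over both genotypes, and 24.3% had an unadjusted p under 0.05. Counts of 1 or 2 in lists this small do not set them apart from such shares.

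Promoter windows from RefSeq (GRCm38.p6, 250 bases before to 50 after each start) were found for 9 of the 10 genes, in 12 windows, and not for Insr. They were searched on both strands for 5 short motifs. The insulin response sequence TNTTTTG lay in windows of G6pc, Irs1 and Irs2, and in 18.6% of all 32851 windows. The short cAMP response sequence TGACG lay in those of Pck1, Slc37a4, Ppargc1a and Irs1, and in 20.8% of all windows. The E-box CACGTG, a sequence bound by clock factors among others, lay in those of Pcx, Irs1 and Irs2, and in 7.15% of all windows. In the Irs1 window the E-box shares bases with a TGACG match and with a TNTTTTG match. The forkhead core TGTTTAC (3.65% of all windows) and the glucocorticoid receptor sequence TGTTCT (19% of all windows) were in none of the 12. A match is a description of letters and not of a site in use. The 250 bases before the start are shown for 4 genes whose values carry the results below, written 5′ to 3′ on the gene's strand. Pck1 (chr2:173152823-173153072, plus strand) and Ppargc1a (chr5:51567726-51567975, minus strand) have TGACG in capitals, in the reverse orientation CGTCA. G6pc (chr11:101367466-101367715, plus strand) has TNTTTTG in capitals. Irs2 (chr8:11008930-11009179, minus strand) has CACGTG and TNTTTTG in capitals, 1 base apart.
Pck1: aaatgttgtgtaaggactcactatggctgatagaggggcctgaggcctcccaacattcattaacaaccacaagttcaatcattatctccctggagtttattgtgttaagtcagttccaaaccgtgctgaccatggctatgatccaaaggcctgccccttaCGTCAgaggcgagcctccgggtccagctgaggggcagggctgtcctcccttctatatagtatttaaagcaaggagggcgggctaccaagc
G6pc: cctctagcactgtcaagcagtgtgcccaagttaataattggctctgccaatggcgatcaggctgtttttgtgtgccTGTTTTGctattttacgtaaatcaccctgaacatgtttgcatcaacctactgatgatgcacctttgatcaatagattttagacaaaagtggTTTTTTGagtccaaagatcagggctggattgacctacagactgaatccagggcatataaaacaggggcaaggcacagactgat
Ppargc1a: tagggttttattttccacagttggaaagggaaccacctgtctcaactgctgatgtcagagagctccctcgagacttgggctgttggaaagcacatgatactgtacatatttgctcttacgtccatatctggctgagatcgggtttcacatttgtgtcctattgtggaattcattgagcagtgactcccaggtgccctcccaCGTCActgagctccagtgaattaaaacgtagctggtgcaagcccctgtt
Irs2: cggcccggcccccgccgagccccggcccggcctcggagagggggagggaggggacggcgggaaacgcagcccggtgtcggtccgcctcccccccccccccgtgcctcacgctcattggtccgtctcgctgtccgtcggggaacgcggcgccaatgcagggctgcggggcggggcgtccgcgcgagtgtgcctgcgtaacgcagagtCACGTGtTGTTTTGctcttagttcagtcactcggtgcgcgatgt

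The genes of glucose production were far more abundant than those of insulin signalling. Per kilobase of exon, averaged over 25 libraries, the level was 536 CPM per kb for Fbp1, 435 for Pck1, 136 for G6pc and 124 for Pcx. It was 33.1 CPM per kb for Slc37a4, 7.26 for Insr, 4.39 for Foxo1, 2.83 for Irs1, 1.72 for Irs2 and 1.04 for Ppargc1a. Neighbours in this order were not always apart. Fbp1 exceeded Pck1 in 18 of 25 libraries and G6pc exceeded Pcx in 15 of 25. Irs2 exceeded Ppargc1a in 19 of 25 and Irs1 exceeded Irs2 in 21 of 25. The differences between neighbours were not tested. The genes also differed in how much they varied among livers. Over all libraries the highest level divided by the lowest was 8.60 for Irs2, 6.04 for Pck1 and 5.06 for G6pc, against 2.06 for Irs1 and 1.999 for Insr.

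**Figure D1:**
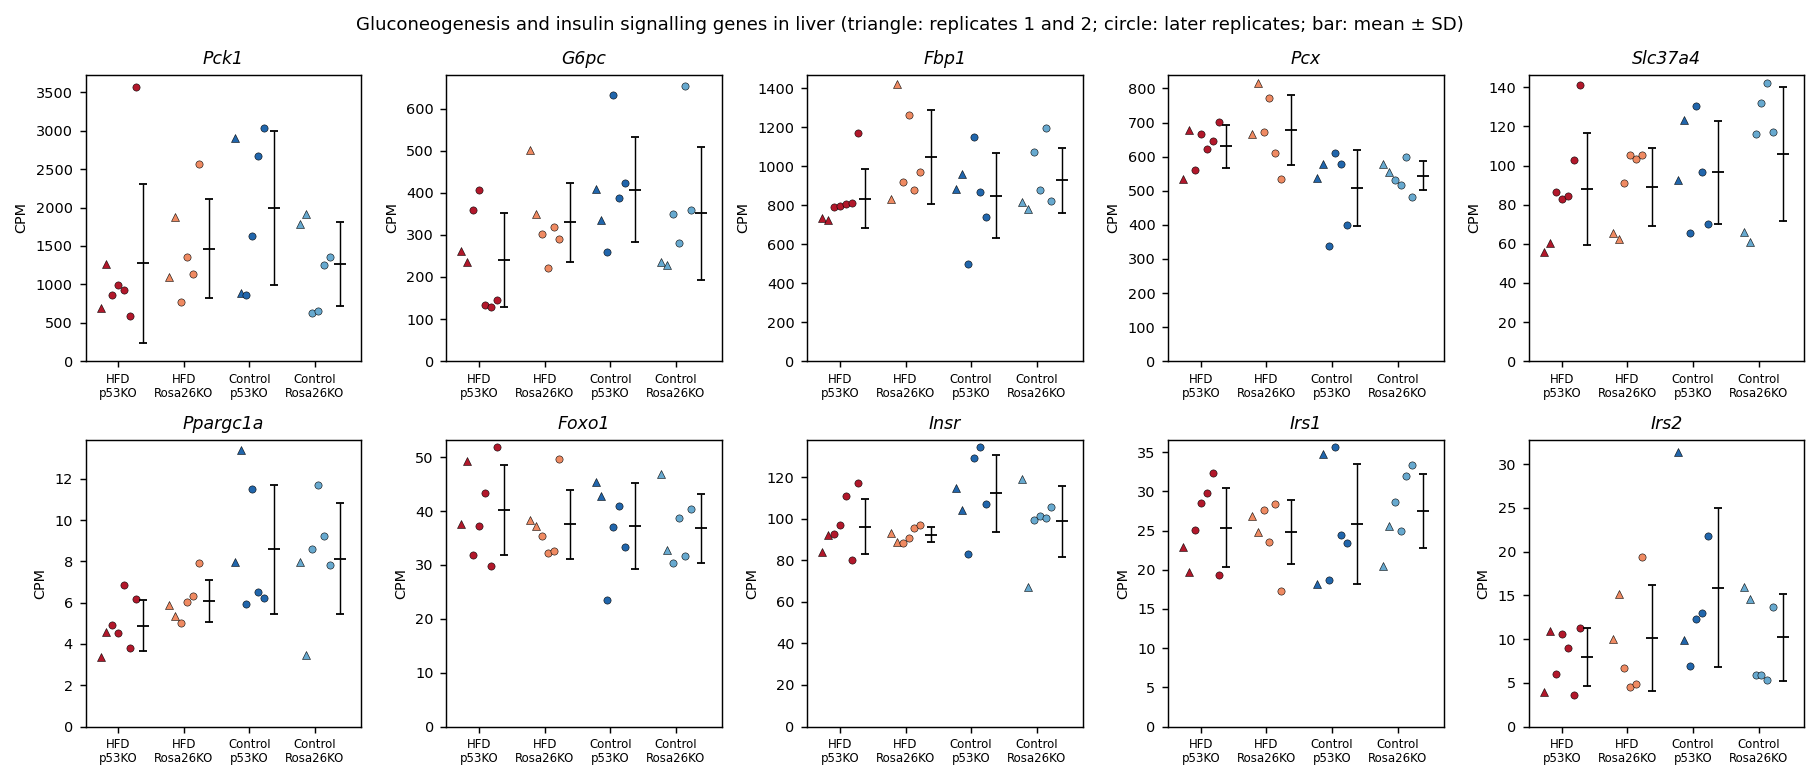
Levels of the 10 genes in CPM (y axis from 0) in every library of the 4 groups on the x axis, with mean and SD at the right of each group. Triangles are replicates 1 and 2, circles the later replicates. Ppargc1a lies lower and Pcx higher in most HFD libraries, while Pck1, G6pc and Irs2 spread widely within groups.

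Under edgeR, HFD lowered 1 of the 10 genes and raised 1 when both genotypes were averaged. Ppargc1a, the coactivator that drives gluconeogenic genes in fasting, fell by 34.8%, and Pcx, which feeds pyruvate into the pathway, was 24.6% higher. Across all genes 9.71% passed the same threshold in this comparison, 4.64% as higher and 5.07% as lower, and a count of 2 in 10 genes is too small to set the genes apart from that background. At an unadjusted p under 0.05 there were 3 of the 10 genes and 24.3% of all genes. DESeq2 placed the same 2 of the 10 past the threshold. Limma voom, here always run with quality weights for the libraries, placed 3 there. So did edgeR without HFD_p53KO replicate 7 and Control_p53KO replicate 3, the third being Insr in both. Over all genes these 2 settings placed 5010 and 2891 past the threshold, against 1372 under edgeR with all libraries. The median log2 fold change of the 10 genes was -0.18, against -0.01 for all genes tested, and 7 of 10 lay below 0.

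Ppargc1a (chromosome 5, 51454250 to 51567726, minus strand) had lowest, median and highest levels of 3.35, 4.60 and 6.85 CPM in HFD_p53KO. They were 4.99, 5.96 and 7.92 CPM in HFD_Rosa26KO, 5.95, 7.25 and 13.4 CPM in Control_p53KO, and 3.47, 8.29 and 11.7 CPM in Control_Rosa26KO. All 13 HFD libraries lay below the control-diet median of their genotype, and 5 of the 7 HFD_p53KO libraries lay below every Control_p53KO library, though the ranges overlapped in both genotypes. Averaged over genotypes the log2 fold change was -0.62 (SE 0.17), with an edgeR adjusted p of 0.0199. It passed in 25 of 25 fits with 1 library left out, with adjusted p from 0.00265 to 0.0428. Within replicates 1 and 2 alone the value was -0.73 (adjusted p = 0.320) and within the later replicates -0.55 (adjusted p = 0.0711), so both subsets pointed the same way and neither passed on its own. The libraries held 78 to 234 reads of this gene each, and its mean level was the lowest of the 10.

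Within p53KO alone Ppargc1a missed the threshold narrowly, at a log2 fold change of -0.82 (SE 0.23, edgeR adjusted p = 0.0532). It passed under DESeq2 (adjusted p = 0.0167) and limma voom (adjusted p = 0.0116), and in 5 of 25 fits with 1 library left out: without HFD_p53KO replicate 5 (0.0346) or 7 (0.0374), HFD_Rosa26KO replicate 6 (0.0482), Control_p53KO replicate 3 (0.0366) or Control_Rosa26KO replicate 2 (0.0202). Without HFD_p53KO replicate 7 and Control_p53KO replicate 3 together it was -0.97 (adjusted p = 0.0218). Within Rosa26KO the value was -0.42 (SE 0.24, adjusted p = 0.366), and limma voom gave -0.65 (adjusted p = 0.0198). The difference between the genotypes, tested as an interaction, did not pass (adjusted p = 0.706).

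Pcx encodes pyruvate carboxylase (chromosome 19, 4510472 to 4621752, plus strand). Its lowest, median and highest levels were 533, 646 and 703 CPM in HFD_p53KO, and 534, 669 and 817 CPM in HFD_Rosa26KO. In Control_p53KO they were 338, 558 and 609 CPM, and in Control_Rosa26KO 481, 544 and 598 CPM. In each genotype 5 HFD libraries exceeded every control library, and the remaining ones overlapped with them. The average log2 fold change was 0.32 (SE 0.09, edgeR adjusted p = 0.0309), with 0.31 in p53KO (adjusted p = 0.180) and 0.32 in Rosa26KO (adjusted p = 0.214).

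The rise of Pcx stood close to the threshold. It kept its direction and missed the threshold in 5 of 25 fits with 1 library left out: without HFD_Rosa26KO replicate 2 (adjusted p = 0.0643) or 4 (0.0531), Control_p53KO replicate 6 (0.0623) or Control_Rosa26KO replicate 4 (0.0582) or 6 (0.0623). Without the 4 libraries high in acute phase genes the value was 0.31 (adjusted p = 0.0712). Within replicates 1 and 2 it was 0.25 (adjusted p = 0.493) and within the later replicates 0.35 (adjusted p = 0.135).

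Pck1, G6pc and Irs2 had lower group means in HFD_p53KO than in Control_p53KO, and none passed the threshold under edgeR with all libraries. Over both genotypes the log2 fold changes were -0.22 for Pck1, -0.43 for G6pc and -0.51 for Irs2, with edgeR adjusted p-values of 0.711, 0.206 and 0.291. The direction of G6pc turned within replicates 1 and 2 (0.14, against -0.70 within the later replicates), and that of Pck1 within the later replicates (0.0098, against -0.64 within replicates 1 and 2). Pck1 encodes cytosolic phosphoenolpyruvate carboxykinase (chromosome 2, 173153048 to 173159273, plus strand) and averaged 1272 ± 1034 CPM (SD, n = 7) in HFD_p53KO, 1467 ± 649 CPM (SD, n = 6) in HFD_Rosa26KO, 1999 ± 1001 CPM (SD, n = 6) in Control_p53KO and 1264 ± 543 CPM (SD, n = 6) in Control_Rosa26KO. Of the HFD_p53KO libraries 1, replicate 7, reached 3564 CPM, above every other library of the study, while the next highest of its group had 1269.6 CPM. The log2 fold change of HFD in p53KO was -0.65 (SE 0.41, edgeR adjusted p = 0.418). Without replicate 7 of HFD_p53KO it was -1.17 (adjusted p = 0.0610), and without that library and Control_p53KO replicate 3 together it was -1.32 (adjusted p = 0.0259).

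G6pc encodes the catalytic subunit of glucose-6-phosphatase, the step that releases glucose (chromosome 11, 101367561 to 101377903, plus strand). Its lowest, median and highest levels were 129, 236 and 407 CPM in HFD_p53KO, 221, 309.6 and 500.3 CPM in HFD_Rosa26KO, 260.0, 398 and 632 CPM in Control_p53KO, and 228, 315 and 654 CPM in Control_Rosa26KO. In p53KO 4 of 7 HFD libraries lay below every control library, and in Rosa26KO the groups overlapped almost wholly. The log2 fold change of HFD in p53KO was -0.77 (SE 0.29, edgeR adjusted p = 0.140), and the interaction was -0.68 (SE 0.42, adjusted p = 0.633).

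Irs2 is the adaptor whose transcript rises in fasting liver (chromosome 8, 10984681 to 11008458, minus strand). Its lowest, median and highest levels were 3.65, 8.9997 and 11.2 CPM in HFD_p53KO, 4.47, 8.33 and 19.4 CPM in HFD_Rosa26KO, 6.96, 12.6 and 31.4 CPM in Control_p53KO, and 5.37, 9.75 and 15.95 CPM in Control_Rosa26KO. None of the 7 HFD_p53KO libraries exceeded the Control_p53KO median, while HFD_Rosa26KO libraries lay on both sides of the Control_Rosa26KO median. The log2 fold change of HFD in p53KO was -1.01 (SE 0.40, edgeR adjusted p = 0.169), and the interaction was -0.98 (SE 0.58, adjusted p = 0.625). In p53KO alone 0 of the 10 genes passed under edgeR, where 2.87% of all genes passed. At an unadjusted p under 0.05 there were 4 of the 10 (Ppargc1a, G6pc, Irs2 and Pcx) and 18.8% of all genes. In Rosa26KO alone 0 of 10 passed, where 1.51% of all genes did, and at an unadjusted p under 0.05 there were 1 of the 10 (Pcx) and 17.5% of all genes. DESeq2 placed 1 of the 10 past the threshold in p53KO and 0 in Rosa26KO, and limma voom 2 in each. Over all genes DESeq2 placed 907 there in p53KO and 615 in Rosa26KO, and limma voom 2189 and 3038.

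**Figure D2:**
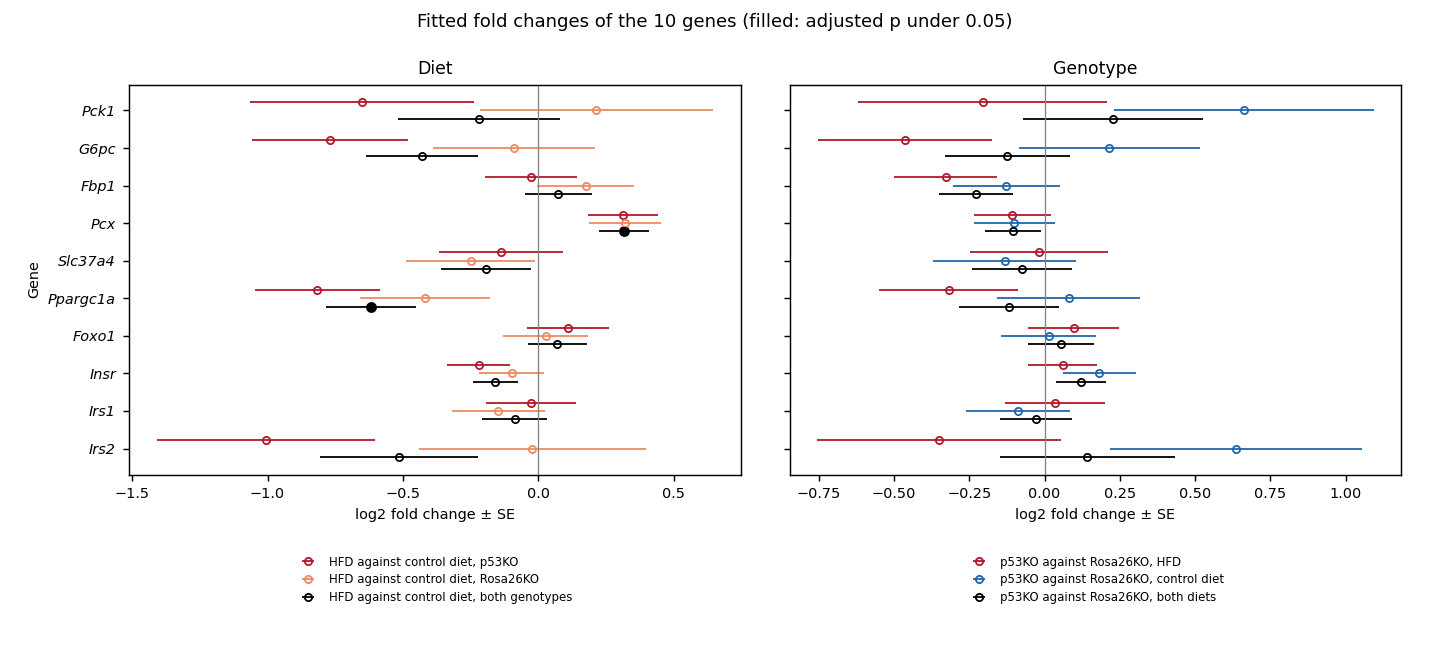
Log2 fold changes (x axis) with SE for the 10 genes (y axis), for HFD against control diet on the left and p53KO against Rosa26KO on the right; filled points have an adjusted p under 0.05. Among 60 estimates the filled points are those of Ppargc1a and Pcx for diet in both genotypes, and the bars of Pck1, G6pc and Irs2 are the widest.

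The remaining 5 genes showed smaller diet differences, and none passed under edgeR with all libraries. Fbp1 encodes fructose-1,6-bisphosphatase (chromosome 13, 62864753 to 62888282, minus strand) and averaged 834 ± 152 CPM (SD, n = 7) in HFD_p53KO, 1048 ± 239 CPM (SD, n = 6) in HFD_Rosa26KO, 850.1 ± 218 CPM (SD, n = 6) in Control_p53KO and 928 ± 168 CPM (SD, n = 6) in Control_Rosa26KO. Its diet log2 fold change over both genotypes was 0.07 (SE 0.12, edgeR adjusted p = 0.769). Insr, the receptor (chromosome 8, 3122061 to 3279617, minus strand), averaged 96.3 ± 13.4 CPM (SD, n = 7), 92.3 ± 3.46 CPM (SD, n = 6), 112 ± 18.7 CPM (SD, n = 6) and 98.9 ± 17.1 CPM (SD, n = 6) in the same order of groups. Insr had a diet log2 fold change of -0.16 over both genotypes (SE 0.08, edgeR adjusted p = 0.247). It fell under limma voom (-0.21, adjusted p = 0.00644) and under edgeR without HFD_p53KO replicate 7 and Control_p53KO replicate 3 (-0.22, adjusted p = 0.0412), while DESeq2 gave -0.16 (adjusted p = 0.220). Of the HFD libraries 12 of 13 lay below the control-diet median of their genotype. For p53KO alone limma voom placed Insr past the threshold at -0.28 (adjusted p = 0.0350), where edgeR gave -0.22 (adjusted p = 0.307).

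Foxo1, the insulin-restrained transcription factor (chromosome 3, 52268336 to 52353221, plus strand), was nearly level. It averaged 40.1 ± 8.39 CPM (SD, n = 7) in HFD_p53KO, 37.5 ± 6.41 CPM (SD, n = 6) in HFD_Rosa26KO, 37.2 ± 7.96 CPM (SD, n = 6) in Control_p53KO and 36.8 ± 6.38 CPM (SD, n = 6) in Control_Rosa26KO. Irs1 (chromosome 1, 82233101 to 82291416, minus strand) averaged 25.4 ± 5.02 CPM (SD, n = 7), 24.8 ± 4.09 CPM (SD, n = 6), 25.9 ± 7.65 CPM (SD, n = 6) and 27.5 ± 4.76 CPM (SD, n = 6) in the same order. The diet log2 fold changes were 0.07 (SE 0.11) for Foxo1 and -0.09 (SE 0.12) for Irs1, with the sign of Foxo1 depending on the setting. Exons of Irs1 overlap those of Gm9747 on the other strand over 30.9% of their bases, exons of Foxo1 those of Gm20402 over 6.80% and exons of Irs2 those of 9530052E02Rik over 2.56%. The strand of counting is not given in the sources used here, so reads of these neighbours cannot be told apart.

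Between genotypes none of the 10 genes passed on either diet or on average, in a setting where 0% of all 14133 genes passed. At an unadjusted p under 0.05 there were 0 of 10 in each genotype comparison, against 3.6% of all genes on HFD, 9.96% on control diet and 4.05% on average. DESeq2 and limma voom also placed 0 of 10 past the threshold in all 3. Log2 fold changes of p53KO against Rosa26KO ran from -0.46 to 0.10 on HFD and from -0.13 to 0.66 on control diet. The largest differences by size on control diet were those of Pck1 (0.66, SE 0.43, edgeR adjusted p = 0.568) and Irs2 (0.63, SE 0.42, adjusted p = 0.572), both with higher means in Control_p53KO. On HFD the smallest unadjusted p was that of Fbp1, 0.0667, at a log2 fold change of -0.33 (SE 0.17, edgeR adjusted p = 0.9998). With standard errors of this size, a genotype difference of the magnitude seen in Ppargc1a for diet could not be told from 0 for Pck1 or Irs2. In the interaction 0 of 10 passed as well, with 0% of all genes and 8.64% at an unadjusted p under 0.05, and 0 of the 10 at an unadjusted p under 0.05. DESeq2 and limma voom also gave 0 of the 10.

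No gene of the 10 separated a pair of groups without overlap. Over all genes tested, the groups did not overlap for 1.05% in HFD_p53KO against Control_p53KO, 3.01% in HFD_Rosa26KO against Control_Rosa26KO, 0.149% in HFD_p53KO against HFD_Rosa26KO and 0.283% in Control_p53KO against Control_Rosa26KO.

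Slc37a4 encodes the transporter that brings glucose-6-phosphate into the endoplasmic reticulum (chromosome 9, 44396852 to 44402968, plus strand), and in 3 of the 4 groups its level split by replicate number. For diet over both genotypes its log2 fold change was -0.19 (SE 0.17, edgeR adjusted p = 0.520). Library names run in order, and replicates 1 and 2 of every group carry the first 8 names. What the names stand for is not stated. In HFD_p53KO replicates 1 and 2 had 55.7 and 60.6 CPM, against 83.0 to 141 CPM in the later replicates. In HFD_Rosa26KO they had 65.5 and 62.6 CPM, against 91.3 to 105 CPM, and in Control_Rosa26KO 66.1 and 60.9 CPM, against 116 to 142 CPM. These 3 groups did not overlap between the early and later replicates. Control_p53KO did not follow: replicates 1 and 2 had 92.4 and 123 CPM, within the 65.7 to 131 CPM of the later ones. With so few early libraries per group, other members split fully in some groups as well. Replicates 1 and 2 lay below all later ones for Fbp1 in HFD_p53KO and Control_Rosa26KO and for G6pc in Control_Rosa26KO. They lay above all later ones for G6pc in HFD_Rosa26KO, Pck1 and Irs2 in Control_Rosa26KO and Foxo1 in Control_p53KO. The share of all genes that split in this way was not computed.

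With group means in the fit, the log2 fold change of replicates 1 and 2 (n = 8) against the later replicates (n = 17) was -0.53 for Slc37a4 (SE 0.15, edgeR adjusted p = 0.0820), so it did not pass, and 0 of the 10 genes did, where 0.538% of all genes passed. At an unadjusted p under 0.05 there were 1 of the 10 (Slc37a4) and 20.6% of all genes. DESeq2 (adjusted p = 0.0219) and limma voom (adjusted p = 0.0166) placed Slc37a4 past the threshold, as did fits without Control_p53KO replicate 2 (-0.66, 0.0172), 3 (-0.59, 0.0295) or 6 (-0.59, 0.04997). The other 9 genes had log2 values from -0.17 to 0.51.

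Some clock genes also differed between replicates 1 and 2 and the later replicates. Of 18 clock genes 2 rose in replicates 1 and 2 and 4 fell: Npas2 (1.19 on the log2 scale, edgeR adjusted p = 0.0213) and Arntl (0.72, adjusted p = 0.0436), which activate the clock, were higher, and Dbp (-2.64, adjusted p = 0.0130), Nr1d1 (-1.30, adjusted p = 0.0213), Nr1d2 and Tef, which they drive, were lower. Early and later replicates overlapped for Arntl in Control_p53KO, for Dbp in Control_Rosa26KO and for Nr1d1 in both groups on control diet. Ugp2, an enzyme of glycogen synthesis, was lower (-0.63, adjusted p = 0.0360), and the cAMP-induced kinase Sik1 was higher (1.15, adjusted p = 0.0460). The acute phase genes Lcn2 (3.79, adjusted p = 0.0217) and Orm2 (3.80, adjusted p = 0.0465) were also higher. Without the 4 libraries high in acute phase genes Npas2 was at 1.20 and Dbp at -2.53, and Slc37a4 was at -0.47 (SE 0.17), with none past the threshold. The part of these differences in the level of Slc37a4 was not tested.

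**Figure D3:**
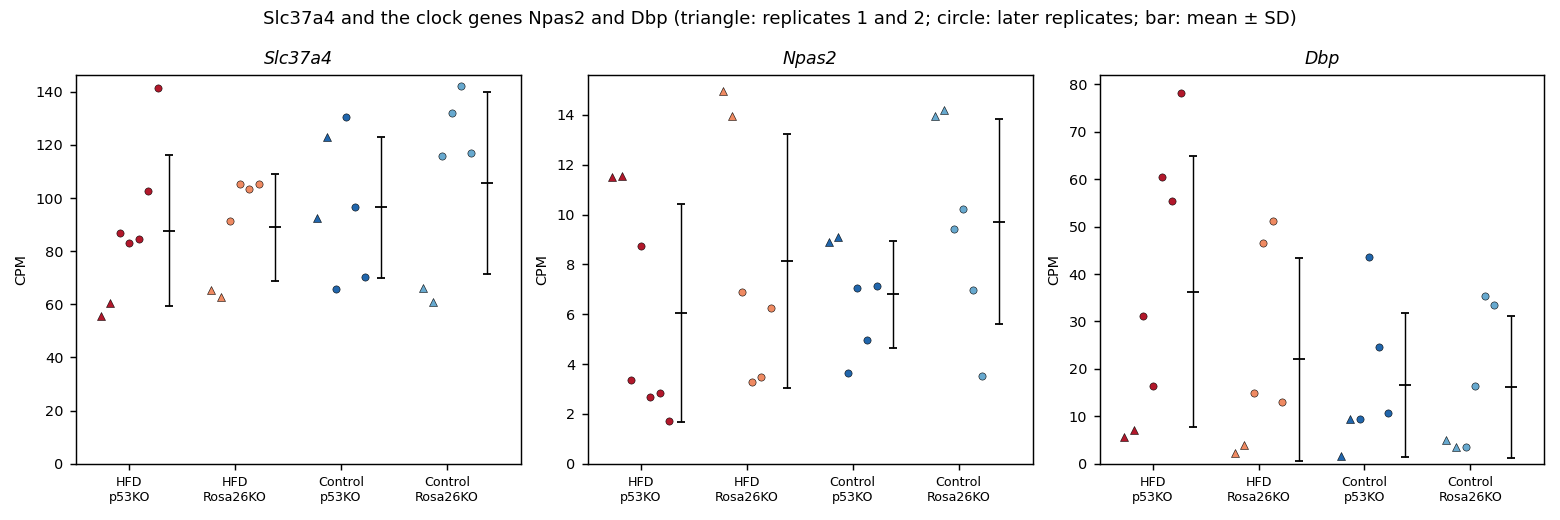
CPM (y axis from 0) of Slc37a4 and of the clock genes Npas2 and Dbp in every library of the 4 groups, with mean and SD; triangles are replicates 1 and 2, circles the later replicates. Triangles of Slc37a4 lie below all circles in 3 of the 4 groups and not in Control_p53KO, while those of Npas2 lie above all circles in 4 of 4. Those of Dbp lie below all circles except in Control_Rosa26KO.

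Some of the 10 genes varied together from liver to liver within groups. After subtracting each group's mean from log2 CPM, 45 pairs were compared over 25 libraries. Of these, 7 pairs passed by both Pearson's r and Spearman's rho with permutation p-values adjusted over the 45 pairs. The share of other gene pairs that would pass was not tested. HFD_p53KO replicate 7 had the highest level in its group of Pck1, Fbp1, Pcx, Slc37a4, Foxo1, Insr and Irs2. Control_p53KO replicate 3 was lowest in its group for all but Irs1. The part of library makeup in the coefficients was not tested. Pck1 and Irs2 had the highest coefficient (r = 0.759, rho = 0.798). Both permutation p-values were 1e-05, the smallest that the resamples can give, with adjusted values of 0.000225 for r and 0.00045 for rho. Without the 2 libraries farthest from the median of Pck1 r was 0.761. It was 0.960 within replicates 1 and 2 (n = 8) and 0.714 within the later replicates (n = 17), and 0.725 in HFD_p53KO, 0.710 in HFD_Rosa26KO, 0.856 in Control_p53KO and 0.807 in Control_Rosa26KO.

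Fbp1 and Pcx, both enzymes of the pathway, had r = 0.757 (rho = 0.665, permutation p = 1e-05 and 0.00044, adjusted 0.000225 and 0.00495). Without the 2 farthest libraries r was 0.655, and it was 0.642 within replicates 1 and 2 and 0.839 within the later ones. By group, r for that pair ran from 0.401 in Control_Rosa26KO to 0.937 in Control_p53KO. Slc37a4 and Ppargc1a had r = 0.697 (rho = 0.676, permutation p = 0.00015 and 0.00034, adjusted 0.00169 and 0.00495), with 0.621 without the 2 farthest libraries, 0.767 within replicates 1 and 2 and 0.581 within the later ones. Foxo1 and Irs2 had r = 0.687 (rho = 0.667, permutation p = 0.00014 and 0.00029, adjusted 0.00169 and 0.00495), with 0.607 without the 2 farthest libraries, 0.501 within replicates 1 and 2 and 0.790 within the later ones.

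The other 3 pairs had lower r and rho. Ppargc1a and Insr had r = 0.658 (rho = 0.605, permutation p = 0.00046 and 0.00181, adjusted 0.00414 and 0.0136), with 0.615 without the 2 farthest libraries, 0.754 within replicates 1 and 2 and 0.627 within the later ones. By group, r for that pair ran from 0.266 in Control_p53KO to 0.926 in HFD_p53KO. Foxo1 and Insr had r = 0.625 (rho = 0.568, permutation p = 0.00081 and 0.00345, adjusted 0.00607 and 0.0222), with 0.538 without the 2 farthest, 0.891 within replicates 1 and 2 and 0.837 within the later ones. Fbp1 and Slc37a4 had r = 0.584 (rho = 0.637, permutation p = 0.00194 and 0.00097, adjusted 0.0123 and 0.00873), with 0.463 without the 2 farthest. Within replicates 1 and 2 that pair had r = 0.0108, so the relation was not seen there, and within the later ones r was 0.817. By group, r for that pair was -0.199 in HFD_Rosa26KO, 0.884 in HFD_p53KO, 0.906 in Control_p53KO and 0.683 in Control_Rosa26KO. Across fits with another prior count, with run means removed or with 1 library left out, Pck1 with Irs2, Fbp1 with Pcx, Slc37a4 with Ppargc1a and Foxo1 with Irs2 passed in 27 of 27. Fbp1 with Slc37a4 passed in 26 of 27, Ppargc1a with Insr in 25 and Foxo1 with Insr in 22. G6pc was in none of the pairs that passed: with Pck1 its r was -0.05. The most negative coefficient was that of Pck1 and Irs1 (r = -0.48, rho = -0.43, permutation p = 0.0166 and 0.0337, adjusted 0.0733 and 0.138), which did not pass.

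**Figure D4:**
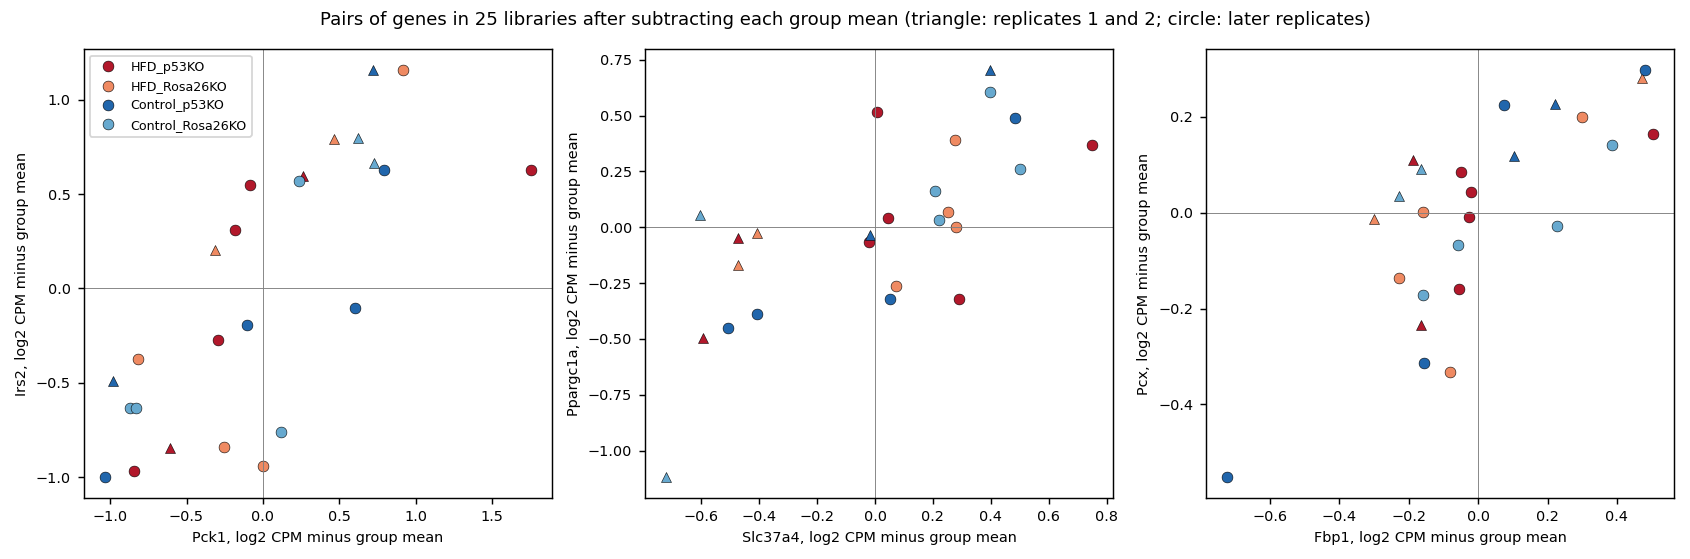
Log2 CPM minus the group mean for 3 pairs of genes over 25 libraries, coloured by group, with triangles for replicates 1 and 2 and circles for later replicates. Points of Pck1 with Irs2 (r = 0.759), Slc37a4 with Ppargc1a (r = 0.697) and Fbp1 with Pcx (r = 0.757) climb from lower left to upper right.

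Among the genes that work around these 10, HFD lowered 5 of 10 that insulin induces, and none of those on the gluconeogenic route or in glycolysis passed, under edgeR. The values that follow are averages over both genotypes, and counts are those of edgeR unless another tool is named. The lists were chosen with earlier results of these data known, as described with the processing. Over all genes 9.71% passed under edgeR, 4.64% as higher and 5.07% as lower. Limma voom placed 5010 genes past the threshold, against 1372 under edgeR. List counts near such shares do not set a list apart from other genes. Among 13 further genes of the gluconeogenic route 0 passed, with Pck2, the mitochondrial carboxykinase, at -0.26 (adjusted p = 0.175) and G6pc3, a ubiquitous phosphatase, at 0.17 (adjusted p = 0.108). None of 15 genes of glucose uptake and glycolysis passed either. In each of these lists 3 genes had an unadjusted p under 0.05. DESeq2 placed 0 of the 13 and 2 of the 15 past the threshold, and limma voom 4 of the 13 and 2 of the 15. Of 15 genes of substrate supply 1 rose (Gpt2, an alanine transaminase) and 2 fell (Tat, which breaks down tyrosine, and Slc38a2, an amino acid transporter), while DESeq2 gave 2 higher and 2 lower and limma voom 6 higher and 3 lower. Tat averaged 651 ± 618 CPM (SD, n = 7) in HFD_p53KO, 693 ± 251 CPM (SD, n = 6) in HFD_Rosa26KO, 1254 ± 620.4 CPM (SD, n = 6) in Control_p53KO and 1424 ± 474 CPM (SD, n = 6) in Control_Rosa26KO. Its log2 fold change was -0.99 (SE 0.30, edgeR adjusted p = 0.0399), and it no longer passed in 17 of 25 fits with 1 library left out (adjusted p up to 0.0724).

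Of 22 genes from the receptor to Akt 1 rose and 1 fell, where 9.71% of all genes passed under edgeR. DESeq2 gave 1 higher and 3 lower, and limma voom 3 higher and 7 lower. Pik3r1, the regulatory subunit of the lipid kinase recruited by IRS proteins, averaged 84.5 ± 9.82 CPM (SD, n = 7) in HFD_p53KO, 83.6 ± 20.4 CPM (SD, n = 6) in HFD_Rosa26KO, 62.6 ± 10.6 CPM (SD, n = 6) in Control_p53KO and 57.2 ± 8.74 CPM (SD, n = 6) in Control_Rosa26KO. Its log2 fold change was 0.49 (SE 0.10, edgeR adjusted p = 0.00317), and it passed in 25 of 25 fits with 1 library left out. Rictor, a subunit of the kinase complex that phosphorylates Akt, fell (-0.31, adjusted p = 0.0447), but did not pass in 17 of 25 such fits. Akt2, the main hepatic isoform, lay at -0.21 (adjusted p = 0.0688).

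Among 20 negative regulators of insulin signalling 4 fell, among them Socs2, Ceacam1 and Sh2b2, and none rose. DESeq2 gave 0 higher and 4 lower, and limma voom 1 higher and 6 lower. Socs2, a growth hormone feedback inhibitor, averaged 7.70 ± 3.92 CPM (SD, n = 7) in HFD_p53KO, 12.96 ± 9.05 CPM (SD, n = 6) in HFD_Rosa26KO, 32.6 ± 16.8 CPM (SD, n = 6) in Control_p53KO and 17.3 ± 10.7 CPM (SD, n = 6) in Control_Rosa26KO. Its log2 fold change was -1.25 (SE 0.33, edgeR adjusted p = 0.0167) on average and -2.09 (SE 0.46, adjusted p = 0.0161) in p53KO, and both held in 25 of 25 fits with 1 library left out. Ceacam1 and Sh2b2 no longer passed in 18 of the 25 fits each. In the glucagon and cAMP list 1 of 36 rose (Pde4d, a cAMP phosphodiesterase, 0.56, adjusted p = 0.0117) and none fell, as under DESeq2, while limma voom gave 2 higher and 8 lower. Gcgr, the glucagon receptor, lay at -0.03, Crtc2 at -0.15, Ppargc1b at -0.03 and Klf15 at -0.12, with adjusted p-values of 0.313 or more. Sik1 lay at -0.83 (adjusted p = 0.123). Of 18 clock genes 1 fell, Clock itself (-0.25, adjusted p = 0.0174). In glycogen metabolism Gyg rose and Ppp1r3g fell among 16, but Gyg no longer passed in 8 of 25 fits and Ppp1r3g in 14. DESeq2 gave 1 higher and 1 lower there, and limma voom 3 higher and 3 lower.

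Of 13 genes that FOXO1 induces in fasting liver, Angptl4, a lipase inhibitor, rose (0.98, SE 0.25, edgeR adjusted p = 0.0161) and Fst fell (-0.80, adjusted p = 0.0491, not passing in 18 of 25 fits). DESeq2 gave 1 higher and 1 lower, and limma voom 1 higher and 3 lower. The list's median was -0.14. Foxo3, a relative of Foxo1, lay at 0.08 (adjusted p = 0.693), Pdk4, which spares pyruvate for glucose synthesis, at -0.17 (adjusted p = 0.728) and Trib3, an Akt inhibitor, at 0.36 (adjusted p = 0.339). Igfbp1, a classical insulin-restrained gene, averaged 42.2 ± 15.2 CPM (SD, n = 7) in HFD_p53KO, 111 ± 77.2 CPM (SD, n = 6) in HFD_Rosa26KO, 174 ± 167 CPM (SD, n = 6) in Control_p53KO and 84.6 ± 61.7 CPM (SD, n = 6) in Control_Rosa26KO. In p53KO it fell on HFD (-2.05, SE 0.55, edgeR adjusted p = 0.0430), but did not pass in 11 of 25 fits with 1 library left out, and without Control_p53KO replicate 1 the value was -1.38 (adjusted p = 0.136). In Rosa26KO it was at 0.39 (adjusted p = 0.744), and the interaction was -2.44 (SE 0.78, adjusted p = 0.560), so a difference between genotypes was not shown.

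Among 10 genes that insulin induces in fed liver 5 fell on HFD and none rose under edgeR, where 5.07% of all genes fell. The list median was -0.81 against -0.01 for all genes. This list was chosen with earlier results of these data known, so its count and median are a description. The 5 that fell make or remodel fatty acids: Acly (-1.25, edgeR adjusted p = 0.000853), Elovl6 (-1.24, 0.00451), Pnpla3 (-1.90, 0.00624), Acaca (-0.58, 0.0142) and Fasn (-1.10, 0.0160). These 5 passed in 25 of 25 fits with 1 library left out. DESeq2 gave 0 higher and 5 lower, and limma voom 0 higher and 6 lower. Hepatocyte markers fell in the same libraries, as given above.

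**Figure D5:**
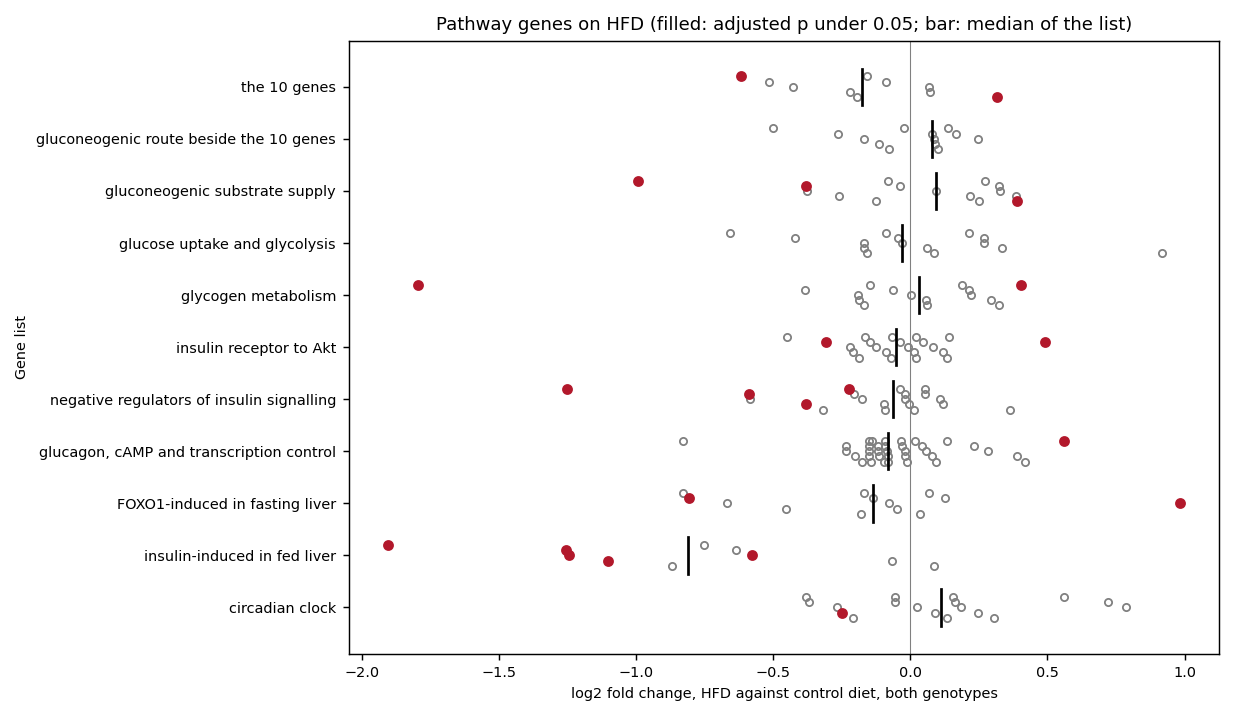
Log2 fold changes of HFD against control diet over both genotypes (x axis) for the genes of each list (y axis); filled points have an adjusted p under 0.05 and black bars are list medians. The insulin-induced list lies lowest, with a median of -0.81 and 5 filled points below 0, while the other medians lie between -0.18 and 0.11. The lists were chosen with earlier results of these data known.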

How the data were processed

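PolyA RNA of flash-frozen liver was sequenced as paired reads of 75 bases, per the labels' protocols. The deposited values are raw read counts per gene, with gene symbols per the file headers. STAR and HOMER and the build GRCm38/mm10 are named per the submitters' processing notes. Not given in the sources used here are their versions, the annotation, the strand of counting and the treatment of multi-mapping reads.

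Low genes were removed with filterByExpr of edgeR 4.0.16 (minimum count 10, minimum total 15), with TMM scaling of the libraries. All 25 libraries entered 1 quasi-likelihood model with 1 mean per group, and p-values (two-sided) were corrected over all genes tested with the Benjamini-Hochberg method, threshold 0.05. SE is the fold change divided by the square root of the F statistic. Other settings used DESeq2 1.42.0, limma 3.58.1 voom with quality weights for the libraries, RLE scaling and no low-count filter. Further ones were edgeR without the robust option, terms for replicate number or library-name run, the compared groups alone, and libraries left out. Limma voom here always means the fit with quality weights, in which libraries do not count equally. Correlations used log2 CPM (prior count 2) and 100000 resamples. R 4.3.3, Python 3.11.15, numpy 2.4.6, scipy 1.17.1 and matplotlib 3.10.9 were used. Procedures were tested on simulated data.

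Positions and exon lengths are from GENCODE M21. Genes eligible to be named were the 10 members, list genes past the threshold and up to 3 genes most similar to each member. Also eligible were 14 genes with a direct role beside a member, of which Fbp2 had too few reads to be tested. Some list genes are not reported here. The members and lists were chosen with earlier results of these data known. Member fold changes were tracked singly across settings where their unadjusted p was under 0.15. For diet over both genotypes and for replicates 1 and 2 against later ones all members were tracked so. Some of these values are not printed.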

Additional observations from a re-analysis of the deposited data

Results flagged for a closer look

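In 4 of the 40 combinations of gene and group, the highest library stood apart from the others by Dixon's criterion, where chance alone gives about 1 in 20. Pck1 was at 3564.44 CPM in HFD_p53KO replicate 7, against 1269.6 CPM in the next highest library of that group. Fbp1 was at 1168.97 CPM in the same library, against 812 CPM in the next. This library is also the HFD_p53KO one whose Trp53 level lay within the HFD_Rosa26KO range, and it is among those high in acute phase genes. Foxo1 was at 49.6504 CPM in HFD_Rosa26KO replicate 6, one of the libraries high in neutrophil markers, against 38.2 CPM in the next. G6pc was at 654.33 CPM in Control_Rosa26KO replicate 5, against 359 CPM in the next.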

How the results depend on the processing

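Counts of genes past the threshold are given in the order HFD over both genotypes, HFD in p53KO, HFD in Rosa26KO, where the reported counts were 1372, 405 and 213. Limma voom gave 5010, 2189 and 3038, leaving out HFD_p53KO 7 and Control_p53KO 3 (chosen after seeing the data) 2891, 1028 and 676, within replicates 1 and 2 of each group 14, 13 and 0, and within the later replicates 594, 15 and 90. For HFD in p53KO and in Rosa26KO DESeq2 gave 907 and 615, only the groups compared 121 and 653, and a term for library-name runs 633 and 442. Without the libraries high in neutrophil markers there were 2500 over both genotypes and 538 in Rosa26KO. With 1 library left out the ranges were 1012 to 1883, 173 to 760 and 93 to 509. For the average genotype difference, reported at 0, DESeq2 gave 7, limma voom 2, leaving out HFD_p53KO 7 and Control_p53KO 3 gave 1, no neutrophil-high libraries 1, and 1 library left out 0 to 1. DESeq2 gave 1 on HFD, 1 on control diet and 5 for the interaction. For replicates 1 and 2 against later ones, reported at 76, DESeq2 gave 641, limma voom 694, no neutrophil-high libraries 490, no acute-phase-high libraries 0, and 1 library left out 14 to 608.

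Of the 10 genes, the 2 past the threshold for diet over both genotypes became 0 within replicates 1 and 2, 0 within the later replicates, 1 without the acute-phase-high libraries, 3 under limma voom, 3 without HFD_p53KO 7 and Control_p53KO 3, and 1 to 2 with 1 library left out. For HFD in p53KO the count of 0 became 1 under DESeq2, the library-name term and no neutrophil-high libraries, 2 under limma voom and without HFD_p53KO 7 and Control_p53KO 3, and 0 to 1 with 1 library left out. For HFD in Rosa26KO limma voom gave 2. For replicates 1 and 2 against later ones it became 1 under DESeq2, limma voom and no neutrophil-high libraries, and 0 to 1 with 1 library left out. Correlated pairs ranged from 5 to 9.

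Same-numbered libraries did not deviate together in every pair (correlations over 0.1 in 4 of 6 pairs for HFD in p53KO, 1 of 6 for HFD in Rosa26KO, 2 of 6 for genotype on HFD and 4 of 6 for genotype on control diet, best with their own number in 3, 0, 1 and 2), so the numbers were not used as pairs. With the replicate block the counts were 2282, 785 and 549 for diet, 1 for genotype and 1 of the 10 genes for HFD in p53KO, Ppargc1a (-0.88, adjusted p = 0.0481). Replicate number 7 occurs only in HFD_p53KO, so the block gives that library a term of its own and takes it out of the comparison. Without HFD_p53KO replicate 7 and with no block, Ppargc1a was also at -0.88 (edgeR adjusted p = 0.0374).

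Signs turned in 17 values of the 10 genes and in 1 of Clock, none of which passed under the alternative. For diet over both genotypes Foxo1 was at -0.0377 under limma voom, -0.0178 without HFD_p53KO 7 and Control_p53KO 3, -0.0543 within replicates 1 and 2 and -0.0075 without neutrophil-high libraries; Fbp1 was at -0.0338 without HFD_p53KO 7 and Control_p53KO 3; Clock was at 0.0543 and G6pc at 0.14 within replicates 1 and 2; Pck1 was at 0.0098 within the later replicates. For replicates 1 and 2 against later ones without acute-phase-high libraries, Fbp1 was at 0.0122, G6pc at 0.0028, Irs1 at 0.0193 and Pck1 at -0.00029, and with 1 library left out G6pc ranged from -0.18 to 0.0331 and Pck1 from -0.0112 to 0.28. Of 80 values of gene and comparison, 44 were tracked only as a range, of which 33 changed sign under at least 1 alternative and 0 passed. The cause of these changes was not tested.

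Depth limits Ppargc1a and Irs2 most, with as few as 78 and 75 reads in a library.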

Other observations

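The tested genes with a mean of at least 5 CPM were ranked by Spearman's rho with each of the 10 over 25 libraries, after subtracting group means, among 10279 candidates. These libraries share depth, batch and tissue makeup, and the ranking is a description. Pck1 was nearest to Sds, the serine dehydratase that yields pyruvate (rho = 0.912), then Ctcflos (0.908) and Vrk3 (0.871). Irs2 was nearest to Pnrc1 (0.878), Zbed3 (0.866) and Cobl (0.864). Foxo1 was nearest to Fn1, which encodes fibronectin (0.896), Slc39a14, a zinc transporter (0.892), and Lrp1, an endocytic receptor (0.865). Fbp1 was nearest to Marc1 (0.898), Gchfr (0.888) and Adk, adenosine kinase (0.872). Insr was nearest to Hipk3 (0.906), G6pc to Stam2 (0.867), Slc37a4 to Shpk (0.866), Pcx to Ei24 (0.854), Irs1 to Hsf2 (0.854) and Ppargc1a to Azin1 (0.785).

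Between genotypes, averaged over both diets, 10 of 10 insulin-induced genes and 12 of 13 further genes of the gluconeogenic route had values below 0 in p53KO against Rosa26KO, where 53.3% of all genes lay above 0. None of them passed the threshold under edgeR, and 4 of the 13 had an unadjusted p under 0.05. The genes of a list are not independent of each other, and the lists were chosen with earlier results of these data known.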
